A study of Mus musculus with 6 samples.

Results

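The genes of 10 integrin subunits carried by leukocytes were examined in RNA-seq counts of cultured mouse dendritic cells with and without DB2313, a compound that the study used to inhibit the transcription factor Spi1 (also called PU.1). The members were the alpha subunit genes Itgax, Itgam, Itgal, Itgae, Itga4 and Itgav and the beta subunit genes Itgb1, Itgb2, Itgb5 and Itgb7. They were taken by gene symbol from the deposited table of read counts, which held 1 row for each of the 10 among 54532 rows. The list was not chosen by the level of the genes, and all 10 passed the filter on low counts. The members and the gene lists used below were, however, chosen with earlier results of these data known.

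There were 6 libraries, 3 of cells labelled control and 3 of cells given DB2313. Per the labels, both groups were dendritic cells kept in medium with fetal bovine serum and antibiotics, and RNA was extracted with Trizol. The labels give no genotype, strain, age, dose or duration of treatment, and they do not say whether the libraries came from separate cultures, so the p-values measure only the spread between these libraries. The study itself speaks of macrophages. Its methods give a concentration of DB2313 for macrophage cultures, without naming these libraries. The columns of the count table carried a short name usual for bone marrow-derived dendritic cells and the name of Spi1, and they were read as control and DB2313. Every direction given here rests on that reading.

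Integrins are adhesion receptors made of an alpha and a beta chain that leave the endoplasmic reticulum only as a pair. They bind matrix proteins or receptors on other cells outside, and talin and kindlins on the tail of the beta chain inside, which switch the receptor to its active form. Itgb2 encodes the beta chain of the leukocyte integrins. It pairs with Itgal (LFA-1, which binds ICAMs), with Itgam (Mac-1 or CR3, which binds complement fragment iC3b and fibrinogen) and with Itgax (CD11c, the surface marker most used for dendritic cells). Itgb7 pairs with Itga4, a receptor for MAdCAM-1 on gut vessels, and with Itgae (CD103), which binds E-cadherin. Itgb1 pairs with many alpha chains, among them Itga4 (VLA-4, which binds VCAM-1 and fibronectin), and Itgav pairs with Itgb1, Itgb5 and others to bind proteins with the RGD motif.

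Total counts ranged from 16146743 to 19764677 per library. CPM values below are read counts relative to the library size, scaled by TMM, log2 fold changes are DB2313 against control with their standard error (SE), and a gene was called changed at a Benjamini-Hochberg adjusted p under 0.05 in the quasi-likelihood test of edgeR over the 14174 genes that passed the filter. Of all these genes, 10.6% were called, 4.66% higher and 5.94% lower, and in 27.4% the values of the groups did not overlap. The spread between libraries was above counting noise in both groups (chi-square per degree of freedom of a pair of libraries, 4.77 to 5.28 in control and 7.43 to 17.7 in DB2313), and DB2313 replicates 1 and 3 stood farthest apart.

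Of the 10 members, 4 were lower with DB2313 (Itgax, Itga4, Itgb1 and Itgam), or 40% beside 5.94% of all tested genes. Of the members, 0 were higher and 6 did not pass the test. None was higher at an unadjusted p under 0.05 either, or called higher by DESeq2 or limma-voom. Of the alpha subunit genes 3 of 6 were called, and of the beta subunit genes 1 of 4. The median log2 fold change of the 10 was -0.17, beside 0.00083 over all tested genes. The groups did not overlap for 5 members, the 4 called ones and Itgb7, or 50% beside 27.4% of all tested genes. Itgax was called under all 16 alternative settings. The other 3 each lost the call in several of them, and the number of members called lower went down to 1 when control replicate 1, control replicate 3 or DB2313 replicate 2 was left out, and to 2 without control replicate 2.

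**Figure D1:**
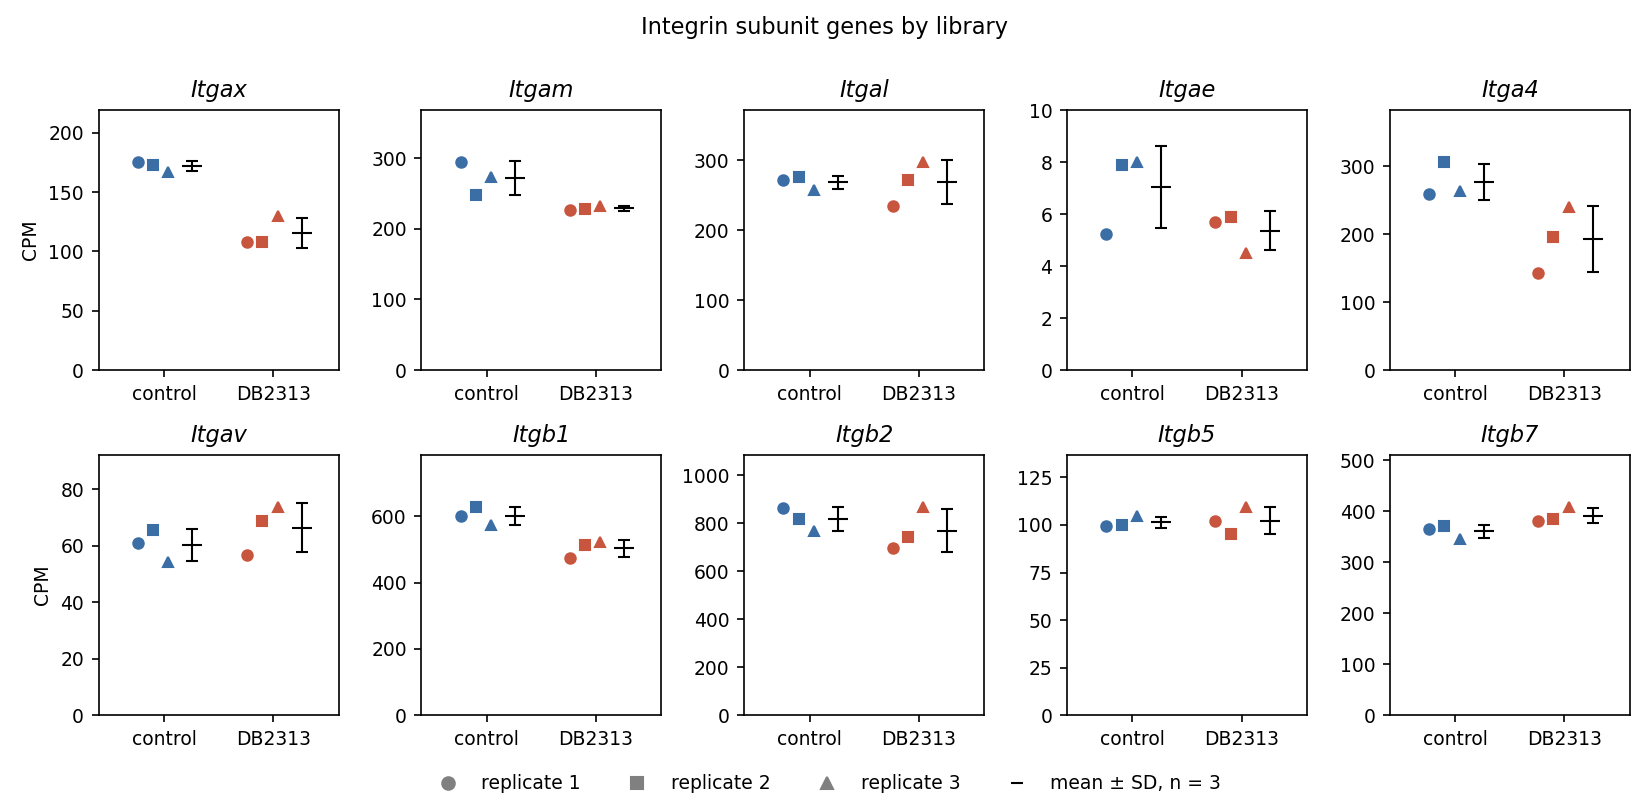
CPM of each of the 10 integrin genes on its own axis from 0, with 1 point for each of the 3 control and 3 DB2313 libraries and a bar at the group mean. Itgax lies between 167 and 176 CPM in control and between 108 and 129.8 with DB2313, whereas the points of Itgal and Itgb2 overlap.

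Itgax (ENSMUSG00000030789, chr7:128129547-128150657, plus strand, GRCm38) had 176, 173 and 167 CPM in the control libraries and 108, 108 and 129.8 CPM in the DB2313 libraries. Every DB2313 library lay below every control library, and the controls differed little among themselves. The mean fell from 172 ± 4.25 to 115 ± 12.5 CPM (SD, n = 3 libraries in each group), a log2 fold change of -0.58 ± 0.08 (SE, edgeR adjusted p 0.000322). The mean was thus lower by 32.9%. When each library was left out in turn, the log2 fold change lay between -0.67 and -0.53 and the adjusted p did not exceed 0.00625.

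Itgam (ENSMUSG00000030786, chr7:128062640-128118491, plus strand) starts upstream of Itgax on the same strand, and 11055 bp separate the genes. It had 295, 247 and 273 CPM in control and 226, 228 and 233 CPM with DB2313. The groups did not overlap, the DB2313 values were close together, and control replicate 2 was the nearest to them. The mean went from 272 ± 23.8 to 229 ± 3.44 CPM (SD, n = 3), a log2 fold change of -0.25 ± 0.07 with an edgeR adjusted p of 0.0441. Among the fits that left out 1 library, the call was lost without control replicate 1 (log2 fold change -0.18, adjusted p 0.228), control replicate 3 (-0.24, 0.146) or DB2313 replicate 2 (-0.24, 0.186), and it was also lost with scaling by library totals (-0.22, 0.0753). The annotated gene Gm49368 overlaps Itgam on the same strand and shares 3454 bp of transcript with it at 99.9% identity, and had at most 15 counts in a library. How reads in this shared stretch were assigned is not given. If they were left uncounted, the CPM of Itgam, its level per kilobase, its ratio to Itgb2 and its share below are too low. This was not tested.

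Itgal (ENSMUSG00000030830, chr7:127296260-127335138, plus strand) had 272, 276 and 258 CPM in control and 235, 272 and 298 CPM with DB2313. The DB2313 libraries lay on both sides of the controls. The means were 269 ± 9.45 and 269 ± 31.5 CPM (SD, n = 3), and the log2 fold change was -0.0013 ± 0.08 (edgeR adjusted p 0.995). Itgal lies 727501 bp from Itgam on the same chromosome.

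Itgb2 (ENSMUSG00000000290, chr10:77530252-77565708, plus strand), the shared beta chain of these alpha subunits, had 865, 819 and 768 CPM in control and 699, 741 and 868 CPM with DB2313. DB2313 replicate 3 was above all controls and the other DB2313 libraries were below all of them. Control libraries averaged 817 ± 48.9 CPM and DB2313 libraries 769 ± 88.2 CPM (SD, n = 3), with a log2 fold change of -0.087 ± 0.08 (edgeR adjusted p 0.583). Without DB2313 replicate 3 the log2 fold change was -0.18 (adjusted p 0.0568).

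The bases around the transcript start are shown for 4 members because PU.1 is known to bind a purine-rich core, GAGGAA. Itgax and Itgam are the neighbouring genes that were lower with DB2313, and Itgb7 and Itgav were not called but hold a longer form of the core. Each sequence runs 5′ to 3′ along the strand of the gene, from 250 bases before the start to 50 after it (RefSeq, GRCm38.p6). Capitals mark GAGGAA or its complement TTCCTC.
Itgax, chr7:128129300-128129599 (plus strand): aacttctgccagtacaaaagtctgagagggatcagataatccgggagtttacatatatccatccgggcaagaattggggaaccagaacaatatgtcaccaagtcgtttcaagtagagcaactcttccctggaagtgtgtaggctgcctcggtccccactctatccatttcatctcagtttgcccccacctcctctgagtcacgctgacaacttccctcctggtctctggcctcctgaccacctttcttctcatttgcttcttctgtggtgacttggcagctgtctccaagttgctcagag
Itgam, chr7:128062390-128062689 (plus strand): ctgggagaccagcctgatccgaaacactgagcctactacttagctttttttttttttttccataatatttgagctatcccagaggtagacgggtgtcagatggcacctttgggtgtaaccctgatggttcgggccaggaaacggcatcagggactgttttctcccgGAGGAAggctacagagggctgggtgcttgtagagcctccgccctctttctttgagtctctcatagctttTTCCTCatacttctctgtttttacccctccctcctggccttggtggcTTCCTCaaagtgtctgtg
Itgb7, chr15:102231886-102232185 (minus strand): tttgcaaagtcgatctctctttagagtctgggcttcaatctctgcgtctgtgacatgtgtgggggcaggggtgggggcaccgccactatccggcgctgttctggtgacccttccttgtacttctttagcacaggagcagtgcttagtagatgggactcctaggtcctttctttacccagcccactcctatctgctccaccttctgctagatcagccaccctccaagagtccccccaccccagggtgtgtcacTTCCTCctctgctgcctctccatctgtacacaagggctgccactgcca
Itgav, chr2:83724147-83724446 (plus strand): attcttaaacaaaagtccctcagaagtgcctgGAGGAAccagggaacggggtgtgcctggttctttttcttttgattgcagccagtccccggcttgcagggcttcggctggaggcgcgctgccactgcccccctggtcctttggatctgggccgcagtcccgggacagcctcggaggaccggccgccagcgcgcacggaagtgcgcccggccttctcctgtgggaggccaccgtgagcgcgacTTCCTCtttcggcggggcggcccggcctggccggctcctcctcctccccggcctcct

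A RefSeq window was found for 7 members (Itgax, Itgam, Itga4, Itgav, Itgb1, Itgb5 and Itgb7). The 6 letters, searched on both strands, were present in 4 of these 7, and in 28.3% of the 32851 windows of the table. Itgam held 3 matches, Itgav 2, and Itgb1 and Itgb7 1 each, whereas the windows of Itgax, Itga4 and Itgb5 held none. The longer form GAGGAAGT (complement ACTTCCTC), which contains the shorter one, was present in Itgav and Itgb7 and in 3.20% of all windows. Of the 4 genes that were lower with DB2313, Itgam and Itgb1 thus held the shorter match and Itgax and Itga4 did not. A match of letters is no measure of binding, and no match says only that these letters are not in this window.

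Itga4 (ENSMUSG00000027009, chr2:79255426-79333123, plus strand) had 260.1, 307 and 264 CPM in control and 143, 196 and 239.8 CPM with DB2313. All DB2313 libraries were below all controls, but they were spread widely, from DB2313 replicate 1 at the bottom to replicate 3 close to the controls. The mean went from 277 ± 26.1 to 193 ± 48.5 CPM (SD, n = 3), a log2 fold change of -0.52 ± 0.13 with an edgeR adjusted p of 0.0205. Without DB2313 replicate 1 the log2 fold change was -0.35 and the call was kept (adjusted p 0.00762). The call was lost without control replicate 1 (adjusted p 0.0592), 2 (0.127) or 3 (0.0546) or DB2313 replicate 2 (0.0776), with DESeq2 (0.126) and with robust edgeR (0.142).

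Itgb7 (ENSMUSG00000001281, chr15:102215995-102231944, minus strand), a beta chain that pairs with Itga4, had 365, 371 and 346 CPM in control and 380.4, 385 and 409 CPM with DB2313. Every DB2313 library was above every control library, by a narrow margin. The means were 361 ± 13.1 and 391 ± 15.1 CPM (SD, n = 3), and the log2 fold change of 0.12 ± 0.07 did not pass the test (p 0.0952, edgeR adjusted p 0.311).

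Itgae (ENSMUSG00000005947, chr11:73090583-73147446, plus strand), the other partner of Itgb7, was the member with the fewest reads, with 85, 126 and 128 counts in control and 94, 118 and 75 counts with DB2313. This was 5.22, 7.89 and 8.02 CPM in control and 5.70, 5.91 and 4.50 CPM with DB2313. The groups overlapped, because control replicate 1 lay among the DB2313 values. The log2 fold change was -0.39 ± 0.21 (edgeR adjusted p 0.296). The SE was the largest of the 10 members. Haspin, which lies within Itgae on the opposite strand, had up to 343 counts in a library, and since the strandedness of the libraries is not given, its reads and those of Itgae may not be fully separated.

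Itgb1 (ENSMUSG00000025809, chr8:128685654-128733200, plus strand) had 599, 628 and 572 CPM in control and 475, 513 and 522 CPM with DB2313. The groups did not overlap, and all DB2313 libraries lay below the lowest control. The mean went from 600.03 ± 27.8 to 503 ± 24.7 CPM (SD, n = 3), a log2 fold change of -0.25 ± 0.07 with an edgeR adjusted p of 0.0258, or 16.1% lower. Among the fits that left out 1 library, the call was lost without control replicate 1 (adjusted p 0.0947), 2 (0.16) or 3 (0.0623) or DB2313 replicate 2 (0.107), with log2 fold changes of -0.29 to -0.21 when each library was left out.

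Itgav (ENSMUSG00000027087, chr2:83724397-83806916, plus strand) had 61.0, 65.6 and 54.2 CPM in control and 56.9, 68.6 and 73.7 CPM with DB2313. The groups overlapped, with DB2313 replicate 1 among the controls and the other DB2313 libraries above them. The log2 fold change was 0.14 ± 0.10 (edgeR adjusted p 0.463).

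Itgb5 (ENSMUSG00000022817, chr16:33829665-33949338, plus strand), a partner of Itgav, had 99.3, 100.03 and 105 CPM in control and 102, 95.1 and 109 CPM with DB2313. The controls lay within the range of the DB2313 libraries. The log2 fold change was 0.013 ± 0.08 (edgeR adjusted p 0.947).

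**Figure D2:**
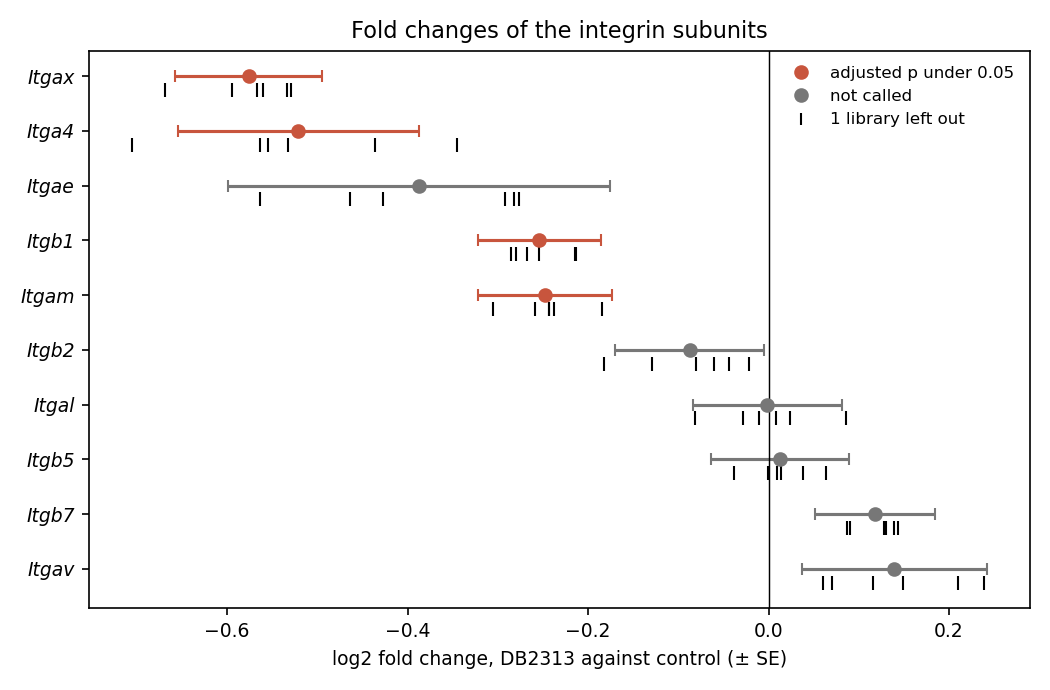
Log2 fold change (DB2313 against control) of each of the 10 members in the edgeR fit on all 6 libraries, with its SE, and the values when 1 library is left out. Itgax at -0.58 and Itga4 at -0.52 lie lowest, and the values of Itgal and Itgb5 lie on both sides of 0. Itgb2 is at -0.087 with all libraries and at -0.18 without DB2313 replicate 3.

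The same libraries tended to stand at the ends of their group. DB2313 replicate 3 had the highest CPM of its group for 9 of the 10 members and replicate 1 the lowest for 7. Among the controls, replicate 2 was the highest for 5 members and replicate 3 the lowest for 6. Values of different members in a library share its scaling and its cells, so they are not separate observations.

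To compare the subunits with each other, CPM was divided by the length of each gene given in the table. Per kilobase in control, Itgb2 was the highest at 268 ± 16.0 (SD, n = 3), followed by the beta chains Itgb1 at 147 ± 6.81 and Itgb7 at 130.2 ± 4.73. The alpha chains of Itgb2 came next, with Itgam at 54.1 ± 4.74, Itgal at 40.9 ± 1.44 and Itgax at 35.8 ± 0.885. Itgb5 at 28.5 ± 0.824, Itga4 at 19.8 ± 1.87 and Itgav at 5.61 ± 0.534 followed, and Itgae was last at 1.54 ± 0.345. The range of each gene in control did not overlap that of its neighbour in this order, and the ends of the order were 174-fold apart. Of all tested genes, 98.8% were at or below Itgb2 in counts per kilobase over the 6 libraries, and 23.0% at or below Itgae. The lengths count all annotated exons, so a gene expressed mainly as a short transcript is set too low.

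With DB2313 the order per kilobase differed at 2 places. Itgb7 stood at 141 ± 5.43 and Itgb1 at 123 ± 6.06, so that Itgb7 was second. Itgb5 stood at 28.8 ± 2.02 and Itgax at 24.0 ± 2.61, and the ranges of the latter pair overlapped. Itgam stood at 45.5 ± 0.685 and Itgal at 40.9 ± 4.80, in the same order as in control, but their ranges overlapped with DB2313.

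The ratio of an alpha to a beta subunit gene in the same library does not depend on the scaling of that library. Ratios per kilobase were compared for 8 known pairs with an exact two-sided permutation test, whose smallest possible p with 3 against 3 libraries is 0.1, so no pair could reach 0.05. For Itgax to Itgb2 the ratios were 0.129, 0.134 and 0.139 in control and 0.0986, 0.0925 and 0.0950 with DB2313. The groups did not overlap, and the difference of the log2 ratios was -0.49 (exact p = 0.1, adjusted p 0.267 over the 8 pairs).

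For Itga4 to Itgb7 the ratios were 0.141, 0.164 and 0.151 in control and 0.0744, 0.101 and 0.116 with DB2313, a difference of -0.67 in log2. For Itgav to Itgb1 they were 0.0387, 0.0397 and 0.0360 in control and 0.0455, 0.0508 and 0.0537 with DB2313, a difference of 0.39. In both pairs the groups did not overlap and the exact permutation test gave p = 0.1 (adjusted 0.267). The difference kept its sign in all 3 pairs when each library was left out, between -0.52 and -0.46, between -0.81 and -0.49, and between 0.34 and 0.46.

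The ratios of the other 5 pairs overlapped between the groups. The difference of the log2 ratios was 0.084 for Itgal to Itgb2, -0.15 for Itgam to Itgb2, -0.30 for Itga4 to Itgb1, -0.49 for Itgae to Itgb7 and 0.12 for Itgav to Itgb5, with exact permutation p-values from 0.2 to 0.5. Itgam had 0.207, 0.183 and 0.216 per Itgb2 in control and 0.197, 0.187 and 0.163 with DB2313, and only DB2313 replicate 3 lay below the controls.

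**Figure D3:**
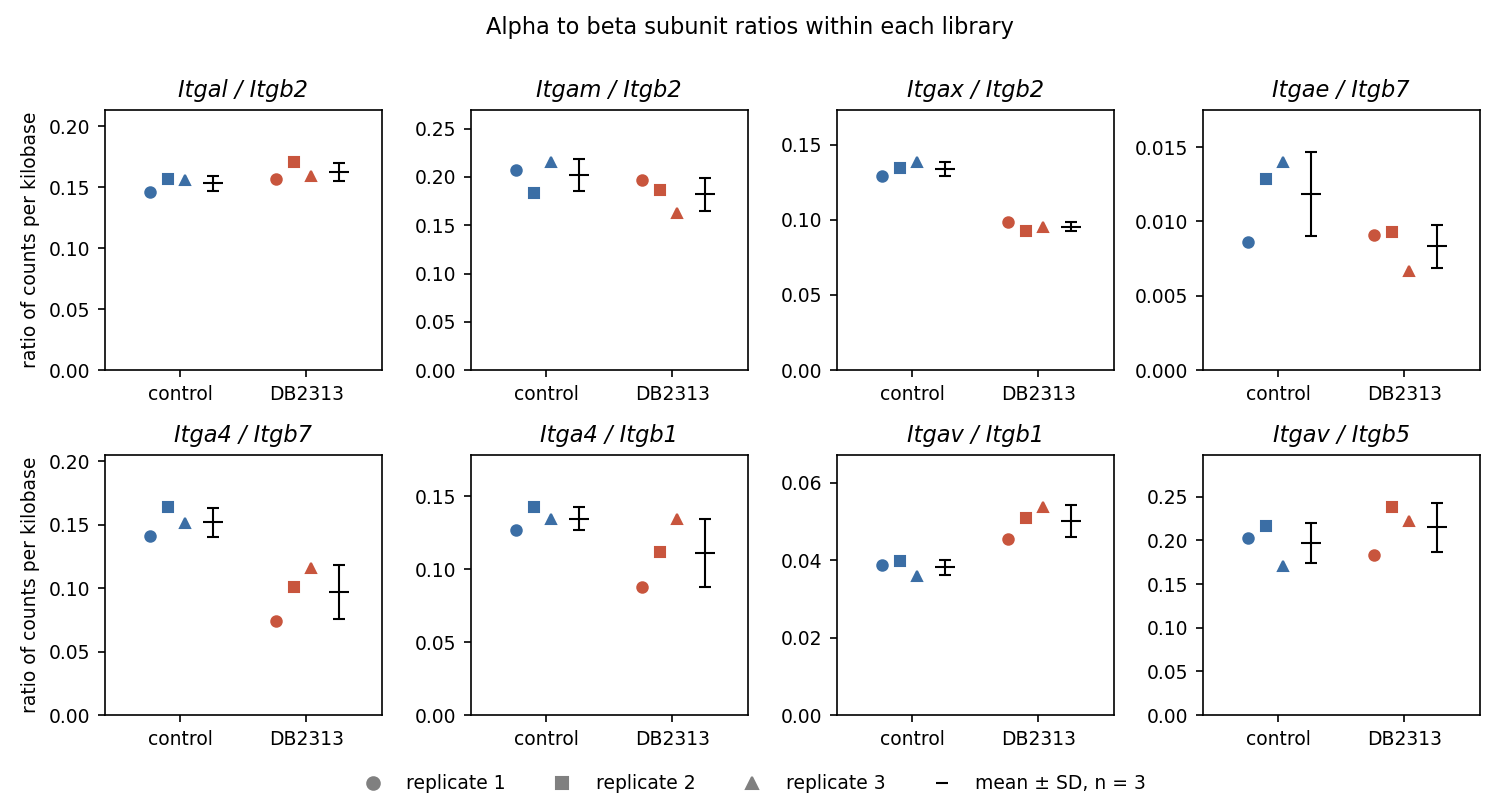
Ratio of alpha to beta subunit gene counts per kilobase in each library for 8 pairs, with 3 control and 3 DB2313 points per pair. The points of Itgax to Itgb2, Itga4 to Itgb7 and Itgav to Itgb1 do not overlap between the groups.

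Among the alpha chains of Itgb2, the share of each in their summed counts per kilobase was also computed, a measure chosen after the values were seen and not tested. Itgax made up 26.8, 28.3 and 27.1% in control and 21.8, 20.6 and 22.8% with DB2313. Itgal made up 30.3, 33.04 and 30.6% in control and 34.6, 37.97 and 38.2% with DB2313. The groups did not overlap for either gene, with the share of Itgax lower and that of Itgal higher with DB2313. The mean CPM of Itgal itself was 269 in both groups, whereas Itgax and Itgam were called lower. The shares of a library sum to 100, so they are not independent of each other. Itgam made up 41.3 ± 2.29% in control and 41.3 ± 2.26% with DB2313 (SD, n = 3). Itgad, the remaining partner of Itgb2, had 1 to 6 counts per library and was left out.

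**Figure D4:**
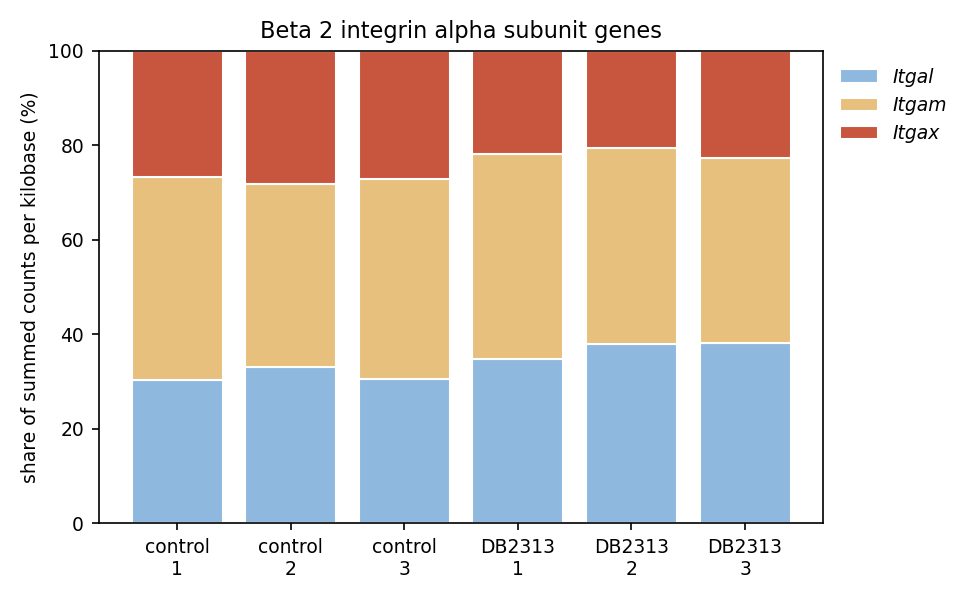
Share (%) of Itgal, Itgam and Itgax in their summed counts per kilobase, as 1 stacked bar from 0 to 100 for each of the 6 libraries. The share of Itgax is 26.8 to 28.3% in control and 20.6 to 22.8% with DB2313.

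Of 16 other integrin subunit genes, 11 were tested, and 1 was higher and 2 were lower with DB2313. This was 27.3% of those tested, beside 10.6% of all genes. Itgb3, which pairs with Itgav as the vitronectin receptor, rose from 73.9 ± 3.74 to 93.2 ± 1.82 CPM (SD, n = 3), a log2 fold change of 0.34 ± 0.08 (edgeR adjusted p 0.00948, 0.0709 without control replicate 3). Itga5, which pairs with Itgb1 as the classical fibronectin receptor, went from 73.5 to 57.2 CPM, a log2 fold change of -0.36 ± 0.09 (edgeR adjusted p 0.0190). Its call was lost without control replicate 1 (0.122), control replicate 3 (0.0675) or DB2313 replicate 2 (0.139). Itga1, a collagen-binding partner of Itgb1, had a log2 fold change of -0.33 ± 0.10 (adjusted p 0.0423) and kept its call only without DB2313 replicate 3 among the 6 fits that left out a library, and lost it with the offset for gene length (adjusted p 0.219), library totals (0.0651) and no filter (0.0568). Itga1 also overlaps Pelo and Gm49395 on the same strand.

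Of 56 genes of integrin activation and signalling, 54 were tested, 4 were higher and 6 were lower, or 18.5% called beside 10.6% of all genes. The median log2 fold change was 0.024. Parvb, encoding beta-parvin, which links integrins to actin through integrin-linked kinase, fell by 0.50 on the log2 scale (SE 0.08, edgeR adjusted p 0.00136). Zyx, encoding zyxin of focal adhesions, rose from 663 to 836 CPM, a log2 fold change of 0.33 ± 0.06 (edgeR adjusted p 0.00354). Both kept their calls when each library was left out. The other named genes that were lower were Swap70 (an actin-binding protein), Flna (filamin A, which binds beta tails and actin), Actn1 (alpha-actinin), Lims1 (PINCH) and Src, with log2 fold changes of -0.29, -0.40, -0.29, -0.30 and -0.32. Rasgrp2, an activator of Rap1, was higher by 0.38. When 1 library was left out, these 6 genes each lost the call without DB2313 replicate 2 and without control replicate 2 (edgeR adjusted p 0.0653 to 0.134). Src, Actn1 and Lims1 also lost it without control replicate 1, and Src, Swap70 and Rasgrp2 without control replicate 3. Tln1 (talin) and Fermt3 (kindlin-3), named after their values were seen, did not pass the test (log2 fold changes -0.10 ± 0.08 and 0.099 ± 0.06, edgeR adjusted p 0.492 and 0.384).

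Of 44 genes of integrin ligands and counter-receptors, 29 were tested, 1 was higher and 5 were lower, or 20.7%, beside 10.6% of all genes. The median log2 fold change was -0.15. Spp1, encoding osteopontin, a ligand of Itgav and Itga4 integrins, had a log2 fold change of -0.91 ± 0.12 (edgeR adjusted p 0.000143). Adam8, a membrane disintegrin, had -0.49 ± 0.06 (0.000194), Tgfb2, a TGF-beta cytokine, -0.82 ± 0.15 (0.0021), and Thbs1, encoding thrombospondin 1, -0.45 ± 0.09 (0.00337). All 4 kept their calls under each alternative. Nrros, which holds latent TGF-beta on myeloid cells, had -0.29 (adjusted p 0.00807, lost without control replicate 3 at 0.0606 or DB2313 replicate 2 at 0.0832). Mfge8, a bridge between apoptotic cells and Itgav integrins, was higher by 0.32 (adjusted p 0.0153, lost without control replicate 1 at 0.0993, control replicate 3 at 0.0637 or DB2313 replicate 2 at 0.0991). Icam1, the ligand of Itgal and Itgam, named after its values were seen, averaged 266 ± 4.82 CPM in the controls and 233 ± 2.78 CPM after DB2313 and did not pass the test (log2 fold change -0.19, edgeR adjusted p 0.069).

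**Figure D5:**
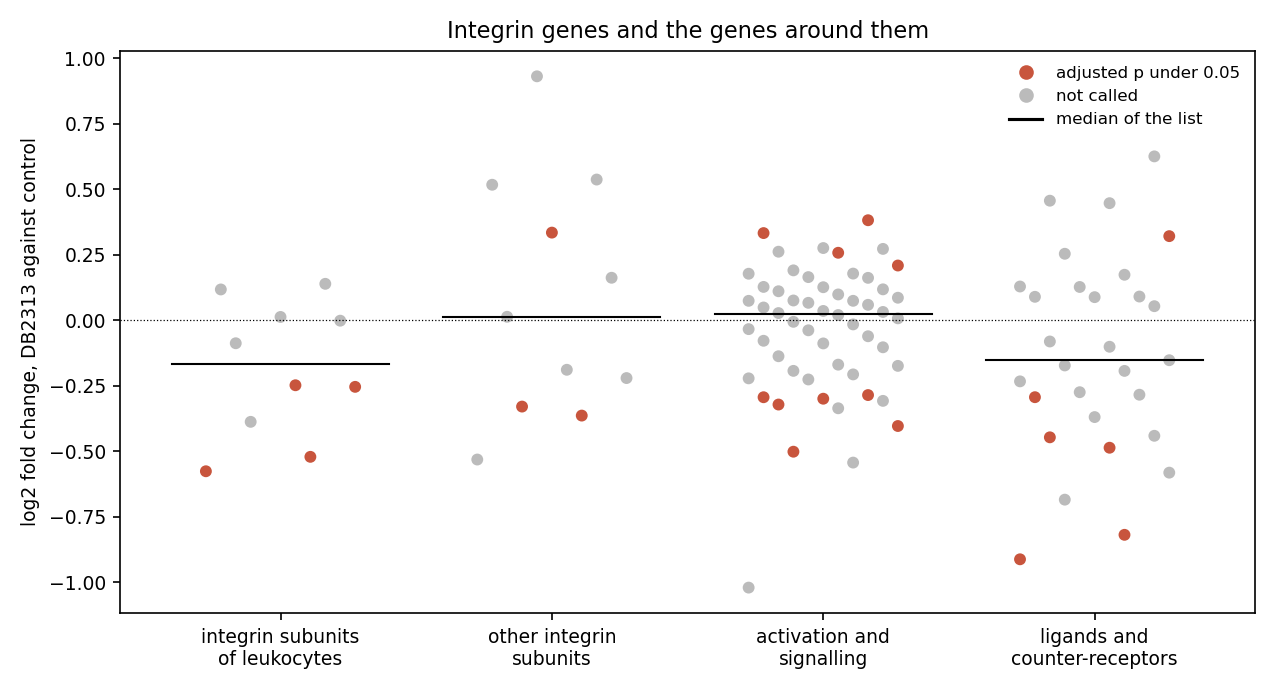
Log2 fold change (DB2313 against control) of every tested gene of the 10 members, the other integrin subunits, the integrin activation and signalling genes and the ligands, 1 point per gene, with called genes marked. The medians are -0.17, 0.014, 0.024 and -0.15 in that order.

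The members are expressed by several kinds of leukocyte, and in bulk RNA fewer cells of a kind and less RNA per cell cannot be told apart. Of the markers of dendritic cells, 16 were tested and 0 were higher and 1 lower (Irf4), and their summed level was 18841 to 19649 CPM in control and 15880 to 18936 CPM with DB2313. Flt3 and Zbtb46, which mark dendritic cells, were at 33.0 and 84.9 CPM in control. Itgae also marks conventional dendritic cells of type 1, and of their 9 markers tested 1 was higher (Clec9a) and 1 lower (Batf3), with sums of 819 to 831 CPM in control and 743 to 764 CPM with DB2313, and Xcr1 at 1.04 CPM in control. Of the macrophage markers 2 were higher and 6 lower of 15 tested, with sums of 11490 to 12950 CPM in control and 10465 to 11526 CPM with DB2313. Neutrophils also carry Itgam, and of their markers 4 were higher and 1 was lower of 14 tested, with sums of 5110 to 5627 and 5534 to 6841 CPM. T cells carry Itgal, Itgae, Itga4 and Itgb7, and their markers summed to 287 to 337 CPM in control and 285 to 402 CPM with DB2313. Of the 14, 0 were called by edgeR and 1 (Cd5) had an unadjusted p under 0.05. Mast cells and basophils can carry Itgb7, and their markers summed to 2569 to 2770 and 2625 to 3131 CPM, with 2 higher of 10 tested and Tpsab1 at 0. B cell and fibroblast markers summed to at most 7.03 and 4.38 CPM in any library, with Col3a1, Dcn and Lum at 0. The share of tested markers called was 53.3% for macrophages and 35.7% for neutrophils, beside 10.6% of all genes. It was 22.2% for dendritic cells of type 1, 20% for mast cells and basophils and 6.25% for dendritic cells. The part of these cells in the results on the integrin genes was not tested.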

How the data were processed

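RNA-seq libraries of mouse dendritic cells, 3 control and 3 DB2313, were analysed. Values were used as deposited, as raw counts of reads for each gene, with no normalization and no pooling. The notes of the submitters name CASAVA 1.8, HISAT2 2.0.5 and featureCounts 1.5.0-p3, whereas the methods of the study name LifeScope. Strandedness and the treatment of multi-mapping reads are not given in the sources used here. Coordinates are GRCm38, because start and end were identical in GENCODE M21 for 98.3% of shared identifiers. Gene lengths are those in the table.

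Groups follow the treatment in the labels. Genes were filtered with filterByExpr, scaled by TMM and tested with edgeR 4.0.16 (quasi-likelihood, group as the only term) in R 4.3.3, with Benjamini-Hochberg adjustment over all genes tested. The script was tested on simulated data with changes larger than those of the members, or none, and the same dispersion for all genes. This does not measure how often changes of the size seen here are found. Alternatives were DESeq2 size factors, library totals, a mean of at least 10 counts, no filter, DESeq2 1.42.0 (the tool of the study), limma-voom 3.58.1, robust edgeR, an offset for gene length (lowess, span 0.3), the replicate number as a block, both together, and the omission of each library. Ratios were tested with scipy 1.17.1. Near-identical copies (at least 95% over 100 bp) were searched with blastn 2.17.0 and found for 5 members. Besides Itgam, Itga4 shared 908 bp with Cerkl at 100% identity, and Itgav 637 bp with Gm13684 at 100%. Itgb2 shared 228 bp with Gm14699 at 96.5%, and Itgb5 343 bp with Gm38317 at 99.7%. Cerkl, Gm13684, Gm14699 and Gm38317 had at most 39, 7, 0 and 24 counts in a library. The members and lists were chosen with earlier results of these data known. The lists were written from general knowledge. The 10 members were all named, and from each list at most the 8 called genes with the lowest p. Other genes were named after their values were seen. No molecular identifiers are mentioned, so reads cannot be taken as independent molecules. No batch or date is given in the labels.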

Additional observations from a re-analysis of the deposited data

How the results depend on the processing

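Itgax was called lower under all 16 alternatives, and 0 members were called higher in any of them. Itgal, at -0.0013, changed sign with library totals (0.024), DESeq2 size factors (0.0023), DESeq2 (0.0023), no filter (0.0078), the gene length offset (0.024) and that offset with the replicate block (0.021), and lay between -0.081 and 0.086 when each library was left out. Itgb5 lay between -0.038 and 0.064 when each library was left out. Itgam lost its call with library totals (-0.22) and Itga4 with DESeq2 (-0.52) and robust edgeR (-0.52). When each library was left out, the log2 fold change lay between -0.31 and -0.18 for Itgam, -0.71 and -0.35 for Itga4 and -0.29 and -0.21 for Itgb1. The number of members called lower lay between 1 and 4, of genes called lower among all between 411 and 1311 (842 with all libraries), and higher between 328 and 1097 (661), the fewest without DB2313 replicate 2 and the most without DB2313 replicate 3. Calls lay between 0 and 5 for the other integrins, 2 and 17 for activation and signalling, and 4 and 11 for the ligands. The cause was not tested. Libraries of the same number did not deviate together (correlations of 0.0035, -0.024 and -0.12), so the numbers were not taken as pairs. With the replicate block Itgam (-0.24, edgeR adjusted p 0.109) and Itgb1 (-0.25, 0.0936) lost their calls, 2 members were called lower and 5 activation and signalling genes were called, with Actn1 (adjusted p 0.0565), Lims1 (0.0523) and Src (0.0578) among those lost. With the gene length offset and the block Itgam was at -0.22 (0.0604). The 3 libraries in each group limit what could be detected, most of all for Itgae, the member with the fewest counts.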
